A study of Homo sapiens with 4 samples.

Results

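Low oxygen was compared with ordinary oxygen in A549 cells grown on Matrigel, a gelled basement membrane extract. A549 is an established human lung adenocarcinoma line, labelled WT for genotype. Cells were kept for 5 days in DMEM with 5% serum, either on Matrigel under hypoxia with 1% oxygen (3D hypoxia) or on Matrigel under normoxia (3D normoxia), whose oxygen level the labels do not give. The same 2 conditions on an ordinary culture dish (2D hypoxia and 2D normoxia) completed the study, which concerned hypoxia and the micropapillary form of lung adenocarcinoma. Each of the 4 groups was 1 library, so the pair on Matrigel has no replicate check. Of 26255 gene symbols with a value, 12573 were compared: those that averaged 1 FPKM or more over the 4 libraries, apart from 90 small RNA genes. FPKM is a level per transcript length, the fragments on each kilobase after scaling for library depth. For each gene the log2 ratio of (FPKM + 1) in 3D hypoxia over 3D normoxia was taken, which understates the differences of low genes.

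Cells sense oxygen through the hypoxia-inducible factors (HIF). With ample oxygen, prolyl hydroxylases of the EGLN family mark the HIF alpha subunits for destruction by the VHL ubiquitin ligase, whereas at low oxygen the alpha subunits persist, pair with ARNT and bind DNA at a short core, ACGTG or GCGTG. Their known targets move cells towards glycolysis, acid export, vessel growth and matrix crosslinking, and limit the entry of pyruvate into mitochondria.

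To show this core in context, the promoter windows of the highest and lowest named genes with a RefSeq window are given below (GRCh38.p14, 250 bases before to 50 bases after the annotated start, gene strand, 5′ to 3′). Capitals mark ACGTG and GCGTG on either strand, so that CACGT and CACGC are the same cores read on the other strand. CA9, which stood highest in 3D hypoxia, lies at chr9:35673678-35673977 on the plus strand, ANGPTL4 at chr19:8363905-8364204 on the plus strand, STC2 at chr5:173328365-173328664 on the minus strand and EGLN3 at chr14:33951025-33951324 on the minus strand. The 2 genes shown from the low end are ADH1C at chr4:99352697-99352996 on the minus strand and FCGBP at chr19:39934585-39934884 on the minus strand.
CA9: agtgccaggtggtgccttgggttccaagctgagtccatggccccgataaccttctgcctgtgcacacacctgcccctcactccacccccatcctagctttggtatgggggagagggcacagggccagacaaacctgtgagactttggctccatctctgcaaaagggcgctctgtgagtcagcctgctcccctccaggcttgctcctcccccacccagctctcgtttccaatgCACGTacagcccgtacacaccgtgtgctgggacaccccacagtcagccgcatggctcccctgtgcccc
ANGPTL4: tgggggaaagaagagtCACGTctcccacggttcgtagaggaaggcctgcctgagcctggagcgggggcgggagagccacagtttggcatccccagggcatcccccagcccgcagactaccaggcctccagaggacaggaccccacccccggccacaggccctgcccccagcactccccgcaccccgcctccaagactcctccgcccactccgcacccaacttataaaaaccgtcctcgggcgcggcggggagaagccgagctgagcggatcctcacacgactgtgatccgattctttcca
STC2: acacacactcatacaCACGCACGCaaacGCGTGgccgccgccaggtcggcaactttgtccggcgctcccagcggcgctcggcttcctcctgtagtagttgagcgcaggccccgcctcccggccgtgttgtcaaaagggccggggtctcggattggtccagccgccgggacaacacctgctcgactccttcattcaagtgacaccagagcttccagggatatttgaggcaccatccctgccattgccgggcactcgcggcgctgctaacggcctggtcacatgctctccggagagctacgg
EGLN3: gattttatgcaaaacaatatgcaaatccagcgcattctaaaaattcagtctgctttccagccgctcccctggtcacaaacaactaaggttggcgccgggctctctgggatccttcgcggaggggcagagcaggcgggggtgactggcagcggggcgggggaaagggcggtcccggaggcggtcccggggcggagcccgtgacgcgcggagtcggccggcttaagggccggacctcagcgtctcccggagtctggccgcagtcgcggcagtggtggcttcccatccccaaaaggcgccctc
ADH1C: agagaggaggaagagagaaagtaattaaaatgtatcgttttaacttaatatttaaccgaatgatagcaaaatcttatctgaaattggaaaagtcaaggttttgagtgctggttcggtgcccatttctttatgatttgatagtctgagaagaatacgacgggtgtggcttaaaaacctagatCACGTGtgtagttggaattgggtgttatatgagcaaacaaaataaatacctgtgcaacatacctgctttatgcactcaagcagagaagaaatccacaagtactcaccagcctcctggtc
FCGBP: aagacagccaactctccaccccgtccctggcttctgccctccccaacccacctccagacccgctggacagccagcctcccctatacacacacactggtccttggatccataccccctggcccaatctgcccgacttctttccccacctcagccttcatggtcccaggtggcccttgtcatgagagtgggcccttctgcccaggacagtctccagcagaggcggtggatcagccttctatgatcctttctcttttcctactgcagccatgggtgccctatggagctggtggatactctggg

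The CA9 window held 1 ACGTG, on the strand opposite to the gene and 18 bases before the start. ANGPTL4 held 1 ACGTG and STC2 held 3 GCGTG, of which a pair overlap. EGLN3 held neither motif, although the gene was among the highest, and ADH1C, the lowest, held ACGTG on both strands at 1 overlapping site. The shares of windows with a core are given without a test. At least 1 core of either kind was in 57.7% of the 265 windows of genes at least 2-fold higher, in 50.6% of the 87 windows of genes at least 2-fold lower and in 63.9% of the 10040 windows of all compared genes. ACGTG was in 28.7%, 23.0% and 27.2% of these windows, and GCGTG in 42.6%, 34.5% and 51.4%. The median GC content was 67.0%, 57.3% and 65.7% in the same order. Of the genes at least 4-fold higher, 66.7% of 42 windows held a core. These matches describe letters in a window of 300 bases and say nothing of binding.

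The libraries were comparable in depth on Matrigel. The FPKM values summed to 596102 in 3D hypoxia and 543547 in 3D normoxia, and depth, inferred from the lowest recurring values, was about 11300000 fragments in 3D hypoxia and 11600000 in 3D normoxia. A gene of 2 kb at 1 FPKM then rested on 22.5 fragments in 3D hypoxia and 23.3 in 3D normoxia, and the median counting error of a log2 ratio was 0.145 over the 11901 genes with a transcript length. Counting errors cover the sampling of fragments only. The 2D libraries were deeper and uneven, at about 38500000 fragments in 2D hypoxia and 23700000 in 2D normoxia. KRT8 and KRT18, keratins of simple epithelia, were at 3731 and 3719.8 FPKM in 3D hypoxia, against 2854 and 2717 FPKM in 3D normoxia, and AKR1B10, an aldo-keto reductase abundant in this line, was at 3126 FPKM in hypoxia and 4136 in normoxia. The lung lineage genes SLC34A2 and SFTPB were listed at 0 in both libraries. Of 12 blood cell markers 9 were under 1 FPKM in both, with a summed level of 43.3 FPKM in 3D hypoxia and 45.0 in 3D normoxia, and of 13 endothelial and fibroblast markers 12 were, with a summed level of 4.66 FPKM in 3D hypoxia and 11.3 FPKM in 3D normoxia, most of it ACTA2. In bulk RNA, fewer cells of a type and less RNA per cell cannot be told apart.

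The hypoxia response on Matrigel was mostly a gain of expression. At least 2-fold higher in 3D hypoxia were 349 genes (2.78% of those compared), and at least 2-fold lower were 122 (0.97%). At least 4-fold differences were found in 57 higher genes (0.453%) and 8 lower genes (0.0636%). The higher genes together held 8.64% of all FPKM in 3D hypoxia, against 3.53% in 3D normoxia, and the lower genes 0.518% in 3D hypoxia, against 1.63% in 3D normoxia. The higher genes spanned all levels, with 42 under 1 FPKM in 3D normoxia and 22 at 100 FPKM or more. Most genes moved little, since the median log2 ratio was -0.02 and the central 95% lay between -0.71 and 1.04. Values ran on without a gap at the threshold, with LGALS3 at 1.002 and GJA1 at 0.998 on the higher side, and CHAC2 at -1.005 and HMGN5 at -0.999 on the lower side. Rescaling each library to a sum of 1000000 lowered the median of all genes by 0.12 and gave 312 higher and 216 lower genes, a higher share of 59.1% in place of 74.1%.

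**Figure D1:**
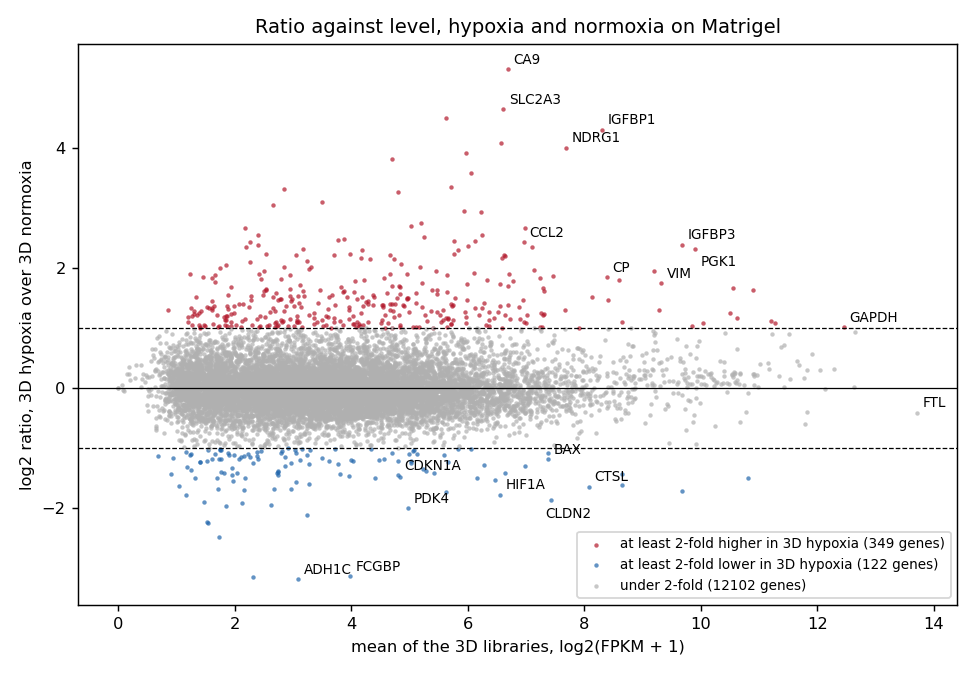
Log2 ratio of 3D hypoxia over 3D normoxia (vertical axis) against the log2 of the mean level of the 3D pair (horizontal axis, FPKM + 1) for 12573 genes, 1 point a gene, with dashed lines at 2-fold. The 349 higher genes (red) outnumber the 122 lower genes (blue), and the highest, CA9, stands at 5.31.

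Only an average of the hypoxia effect over both cultures allows an error estimate, and it was fitted with limma on all 4 libraries and 1 residual degree of freedom. It called 727 genes higher (5.78%) and 500 lower (3.98%) at an adjusted p below 0.05, among them 277 of the 349 genes higher on Matrigel and 95 of the 122 lower ones. The ratio on Matrigel is part of this average, so genes chosen by that ratio pass limma more readily. The overlap, here and for the genes below, is no independent check. The verbs rose and fell are used below for genes that passed limma. These calls were unstable, since 405 and 208 were called with small RNA genes kept and 0 without the filter on low values, where 2887 genes had an unadjusted p under 0.05. Whether the libraries came from separate cultures or days is not in the labels. With oxygen and culture as additive terms, a gene's residual rests only on the difference between its ratios on Matrigel and on the dish. The limma p-values reflect this difference, moderated over all genes, and hold no spread between replicates. A gene can miss limma because its ratios differ between the cultures. A miss therefore does not measure how reliable the ratio on Matrigel is.

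The largest gains were in genes of acid handling, glucose uptake, matrix and secreted regulators. CA9, a carbonic anhydrase at the cell surface, was at 199.7 FPKM in 3D hypoxia, against 4.05 FPKM in 3D normoxia, which is a log2 ratio of 5.31 (counting error 0.168). The glucose transporter SLC2A3 was at 187 FPKM in hypoxia and 6.46 in normoxia (log2 ratio 4.65), and WISP2, a matricellular protein, at 93.6 FPKM in hypoxia and 3.15 in normoxia (4.51). CA9 rose by an average of 5.06 ± 0.15 (SE) over both cultures, limma adjusted p = 1.19e-05. IGFBP1, which binds insulin-like growth factors, was at 604 FPKM in 3D hypoxia and 29.6 FPKM in 3D normoxia. Of the 15 highest named genes, 14 passed limma in the average effect. The exception was NDUFA4L2, a mitochondrial protein at 12.1 FPKM in 3D hypoxia and 0.314 FPKM in 3D normoxia (log2 ratio 3.32), whose ratio in 2D was 0.38 (limma adjusted p = 0.0740). CXCR4, a chemokine receptor, was at 10.3 FPKM in 3D hypoxia and nearly silent in 3D normoxia, at 0.366 FPKM. MIR210HG, the host transcript of a hypoxia-linked microRNA, was at 19.2 FPKM in hypoxia and 1.35 in normoxia.

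The deepest losses were metabolic, secretory and junctional genes. The lowest ratio was that of ADH1C, an enzyme of alcohol oxidation, with 0.671 FPKM in 3D hypoxia, against 14.3 FPKM in 3D normoxia (log2 ratio -3.19). ADH1C has close paralogs that can share reads, and its value is uncertain to that extent. FCGBP, a protein of mucus, was at 2.21 FPKM in hypoxia and 27.3 in normoxia (log2 ratio -3.14). CLDN2, a pore-forming claudin of tight junctions, was at 73.0 FPKM in hypoxia and 269 in normoxia, and CTSL, a lysosomal cysteine protease, at 130.5 FPKM in hypoxia and 411 in normoxia. CLDN2 fell by 2.02 ± 0.13 (SE) on the log2 scale over both cultures, limma adjusted p = 0.000379. Lower too were GAPLINC, a long noncoding RNA (-2.13), the peroxisomal oxidase ACOX2 (-1.96), the aromatic amino acid decarboxylase DDC (-1.93), the vesicle genes SYNGR4 (-1.70) and UNC13A (-1.69), and EHF, an epithelial transcription factor (-1.60). All of these passed limma. H3F3A (-3.15), MTRNR2L2 (-1.72), MTRNR2L8 (-1.63) and MTRNR2L9 (-1.50) share near-identical sequence with other loci, so their values are uncertain.

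**Figure D2:**
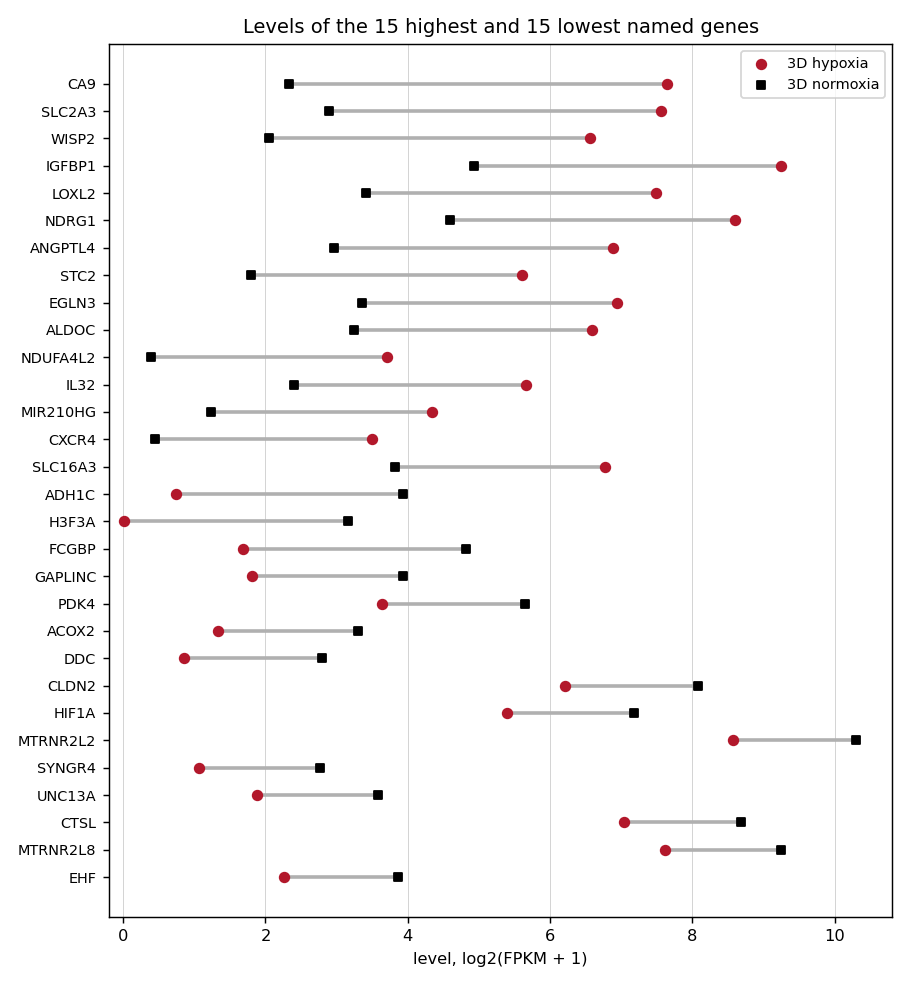
Level in 3D hypoxia (red circles) and 3D normoxia (black squares), as log2(FPKM + 1) on the horizontal axis, for the 15 highest and the 15 lowest named genes, 1 library each. IGFBP1 has the highest level of the genes in the upper set, at 604.3 FPKM in 3D hypoxia, and CXCR4 and NDUFA4L2 start from under 1 FPKM in 3D normoxia.

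The largest gains in FPKM were those of abundant transcripts of actin binding and glycolysis. TMSB10, an actin monomer-binding thymosin, had 8422 FPKM in 3D hypoxia and 4390.4 FPKM in 3D normoxia, and the glycolytic enzyme GAPDH had 7526 FPKM in hypoxia and 3743 in normoxia. ALDOA, an aldolase, had 2896 FPKM in hypoxia and 937 in normoxia, TMSB4X 3363 FPKM in hypoxia and 1579 in normoxia, and the pyruvate kinase PKM 3809 FPKM in hypoxia and 2049 in normoxia. These 5 genes all rose by limma. The largest loss was in FTL, the ferritin light chain and the most abundant transcript of the pair, at 11584 FPKM in 3D hypoxia and 15438 FPKM in 3D normoxia, a log2 ratio of only -0.41 that did not pass (limma adjusted p = 0.772). ALDH1A1, an aldehyde dehydrogenase, was at 2823 FPKM in hypoxia and 4277 in normoxia, and did not pass either (limma adjusted p = 0.282). GAPDH, FTL and TMSB4X have many pseudogenes that can share reads.

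The listed HIF target genes were higher almost without exception. Of 43 listed, 42 passed the level filter and are called measured, all 42 had a ratio above 0 (47.8% of all compared genes did), 39 were at least 2-fold higher and their median log2 ratio was 1.81, against -0.02 over all genes. By limma 38 rose and 0 fell. Among all compared genes 2.78% were at least 2-fold higher and 5.78% rose. This list and those below were chosen with earlier results of these data known. A gene can also pass the level filter through the group where it is high. Counts over measured members therefore only describe them. Their summed level was 8666 FPKM in 3D hypoxia and 2447 FPKM in 3D normoxia. NDRG1, a stress-response gene, was at 387 FPKM in hypoxia and 23.1 in normoxia, ANGPTL4, a secreted inhibitor of lipoprotein lipase, at 117 FPKM in hypoxia and 6.78 in normoxia, and ADM, the vasodilator adrenomedullin, at 132 FPKM in hypoxia and 16.3 in normoxia. The mitophagy receptors BNIP3L and BNIP3 had log2 ratios of 2.37 and 1.70, and MXI1, which opposes MYC, 1.52. The adenylate kinase AK4 (1.78) and the small mitochondrial protein FAM162A (1.18) were also over 2-fold. The 3 members under 2-fold included CA12, another membrane carbonic anhydrase (0.82).

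The HIF machinery itself moved in both directions. HIF1A, an oxygen-regulated alpha subunit, was at 41.1 FPKM in 3D hypoxia and 144 FPKM in 3D normoxia (log2 ratio -1.79, limma adjusted p = 0.00109), so its transcript fell while the targets rose. EPAS1, the other main alpha subunit, was at 63.3 FPKM in hypoxia and 62.1 in normoxia, and the partner ARNT at 10.7 FPKM in hypoxia and 9.90 in normoxia, neither past limma (adjusted p = 0.449 and 0.736). EGLN3, a prolyl hydroxylase that acts on HIF alpha subunits, was at 122 FPKM in hypoxia and 9.28 in normoxia, and CITED2, which dampens HIF by binding its coactivator, at 38.5 FPKM in hypoxia and 11.1 in normoxia. HIF1A-AS2, antisense to HIF1A, had a ratio of -1.74, but the sources used here do not give strand use, and its reads cannot be told apart from those of HIF1A. Of 20 measured histone demethylases and related oxygen-dependent enzymes, KDM3A (1.89) and KDM4B (1.04) were at least 2-fold higher.

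Nearly every step of glycolysis stood higher. Of 23 genes for glucose uptake and glycolysis, 17 were at least 2-fold higher, 0 lower, and 18 rose by limma, with a median log2 ratio of 1.66. The shares over all compared genes were 2.78%, 0.97% and 5.78%. The glucose transporter SLC2A1 was at 161 FPKM in 3D hypoxia and 33.9 FPKM in 3D normoxia, and the hexokinase HK2 at 6.84 FPKM in hypoxia and 0.233 in normoxia. ALDOC, an aldolase, had a ratio of 3.34, the bifunctional regulators PFKFB4 and PFKFB3 2.31 and 1.67, and the phosphofructokinases PFKP and PFKL 1.86 and 1.14. Of the later enzymes, PGK1 was at 1598 FPKM in hypoxia and 322 in normoxia, ENO2 at 164 FPKM in hypoxia and 34.8 in normoxia and LDHA, which makes lactate, at 2295 FPKM in hypoxia and 725 in normoxia. SLC16A3, the lactate exporter, was at 108 FPKM in hypoxia and 13.1 in normoxia. Glycogen genes were higher in part: the scaffold PPP1R3C (1.36), the branching enzyme GBE1 (1.07) and the synthase GYS1 (1.05) were at least 2-fold higher of 21, and all 3 rose by limma, while the list's median was 0.08 and turned to -0.03 on rescaling to a sum of 1000000.

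The kinases that hold back pyruvate dehydrogenase parted. PDK1 was at 12.7 FPKM in 3D hypoxia and 1.95 FPKM in 3D normoxia, whereas PDK4 was at 11.5 FPKM in hypoxia and 49.2 in normoxia, and both passed limma (adjusted p = 0.000614 and 0.000619). Of 30 genes of pyruvate entry and the tricarboxylic acid cycle, 27 had a ratio below 0 (52.2% of all compared genes did), with a median of -0.27. Mitochondrial genes shifted slightly and together. Of 71 respiratory chain and ATP synthase subunits, 67 were below 0 with a median of -0.31, 0 reached 2-fold, and 2 fell by limma, one of them ATP5G1 (184 FPKM in hypoxia and 305 in normoxia). Of 76 mitochondrial ribosomal proteins, 69 were below 0, with the same median and 4 falls. Over all compared genes 3.98% fell by limma, and the falls in both lists were near that share. Fatty acid oxidation genes had a median of -0.25, with 21 of 25 below 0.

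**Figure D3:**
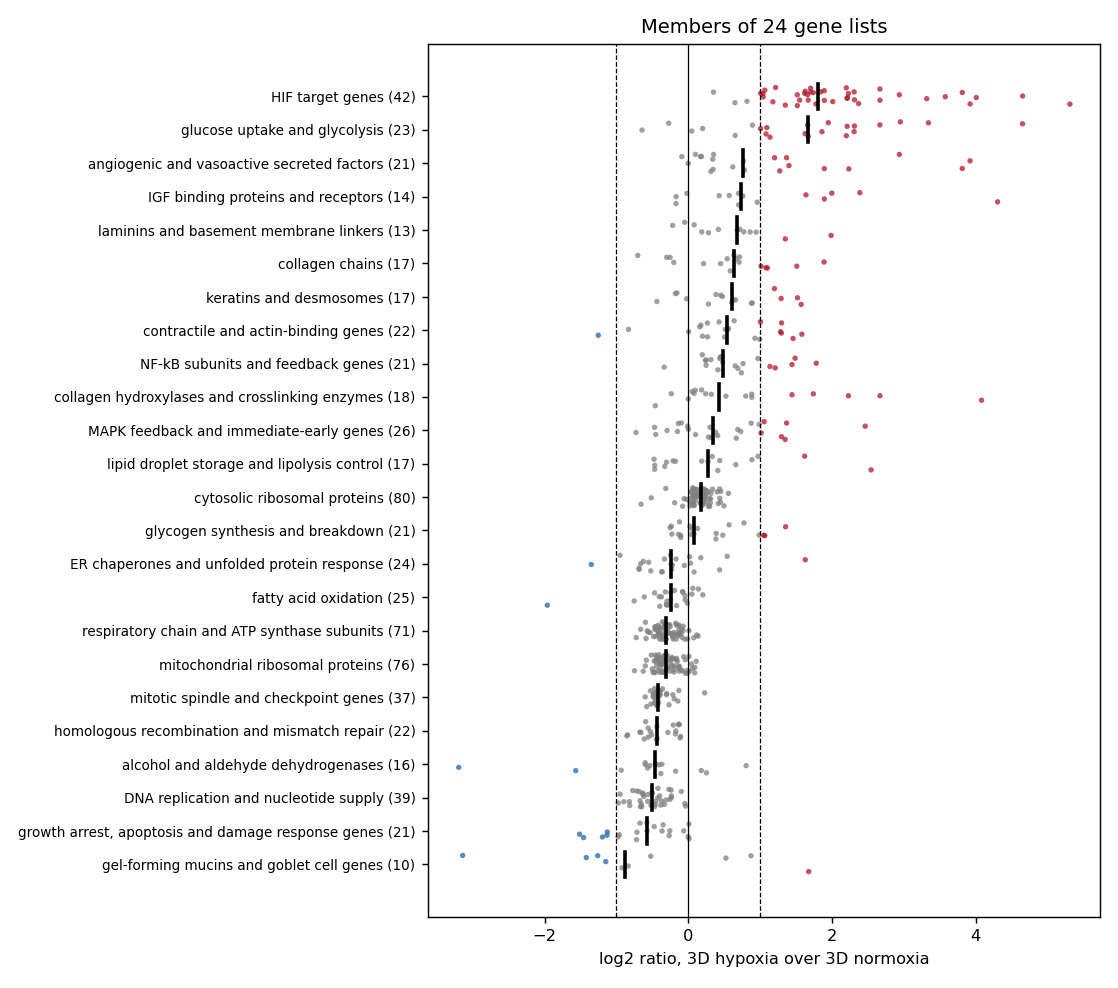
Log2 ratio of 3D hypoxia over 3D normoxia for the measured members of 24 gene lists, 1 point a gene, with the list's median as a black bar, the number of measured genes in brackets and dashed lines at 2-fold. HIF target and glycolysis genes have medians of 1.81 and 1.66, while mitochondrial and proliferation lists form tight groups below 0.

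Alcohol and aldehyde dehydrogenases were mostly lower, with 13 of 16 below 0, a median of -0.46 and 6 falls by limma. Among all compared genes 52.2% were below 0 and 3.98% fell. ADH6 was at 3.17 FPKM in 3D hypoxia and 11.3 FPKM in 3D normoxia, and ALDH3A1, which oxidises aldehydes, at 665 FPKM in hypoxia and 1269 in normoxia. Aldo-keto reductases and NRF2 redox enzymes had a median of -0.23, and AKR1C1, a reductase of steroids and aldehydes, had 653 FPKM in hypoxia and 1068 in normoxia. AKR1B15 went the other way, at 23.7 FPKM in hypoxia and 7.15 in normoxia (log2 ratio 1.60, limma adjusted p = 0.358), but it is a close paralog of AKR1B10 and its value is uncertain. In drug and bile metabolism, the sulfotransferase SULT2B1 (1.68) and TIPARP, a target of the aryl hydrocarbon receptor (1.48), rose, while SLC51B, part of a bile acid exporter (-1.22), fell.

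A pair of lipid storage genes were higher in a list that was otherwise mixed. PLIN2, the coat protein of lipid droplets, was at 129 FPKM in 3D hypoxia and 21.3 FPKM in 3D normoxia, and HILPDA, an inhibitor of the lipase ATGL, at 238 FPKM in hypoxia and 76.8 in normoxia. PLIN2 rose by limma (adjusted p = 0.00669), and HILPDA just missed (adjusted p = 0.0562). They were the 2 of 17 lipid droplet genes past 2-fold. In this list 10 genes were above 0 and 7 below, with a median of 0.28, and the triglyceride synthases DGAT1 (-0.47) and DGAT2 (-0.47) were among those below. SCD, the main fatty acid desaturase, was at 1244 FPKM in 3D hypoxia and 606 FPKM in 3D normoxia (log2 ratio 1.04), against 679 FPKM in 2D hypoxia and 908 FPKM in 2D normoxia (-0.42). Sterol genes had a similar arrangement, with 20 of 24 above 0 and a median of 0.31 on Matrigel, where the median in 2D was -0.20. The difference between the cultures has no error term and was not tested.

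Secreted regulators of growth and vessels were higher. Of 14 IGF binding proteins and receptors, 5 were at least 2-fold higher and 0 lower, with a median log2 ratio of 0.73. Among all compared genes 2.78% were at least 2-fold higher, 0.97% were lower and 5.78% rose by limma. IGFBP3 had the highest level of them in 3D hypoxia, at 1382 FPKM, with 263 FPKM in 3D normoxia, and rose by limma (adjusted p = 0.000332). IGFBP7 had a ratio of 1.64. IGFBP5 had a ratio of 2.00 at a low level, 4.37 FPKM in 3D hypoxia and 0.342 in 3D normoxia, and of 0.40 in 2D. IGFBP6 was at 163 FPKM in hypoxia and 43.1 in normoxia on Matrigel, against 61.3 FPKM in 2D hypoxia and 71.8 in 2D normoxia, and did not pass the average effect (limma adjusted p = 0.218). Of 21 angiogenic and vasoactive factors, 9 were at least 2-fold higher and 11 rose by limma, with a median of 0.77. The glycoprotein hormones STC2 and STC1 were at 47.7 and 25.03 FPKM in 3D hypoxia, against 2.46 and 4.53 FPKM in 3D normoxia. VEGFA, the main growth factor of vessels, was at 47.9 FPKM in hypoxia and 12.2 in normoxia, and the ephrins EFNA1 and EFNA3 had ratios of 1.40 and 1.27. PDGFB and PDGFA, chains of platelet-derived growth factor, had ratios of 1.37 and 1.20, with PDGFB low at 3.49 FPKM in hypoxia and 0.740 in normoxia.

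Genes that modify and crosslink collagen were higher beside the collagens themselves. LOXL2, a lysyl oxidase that crosslinks collagen, was at 179 FPKM in 3D hypoxia and 9.64 FPKM in 3D normoxia, and PLOD2, a lysyl hydroxylase, at 218 FPKM in hypoxia and 33.5 in normoxia. The prolyl hydroxylase subunits P4HA1 and P4HA2 had ratios of 2.23 and 1.74. LOXL4 had a ratio of 1.44 at a low level, 3.47 FPKM in hypoxia and 0.643 in normoxia. These were the 5 of 18 measured enzymes past 2-fold, and the list's median was 0.42. Of 17 collagen chains, 5 were at least 2-fold higher and 8 rose by limma, with a median of 0.64. The shares over all compared genes were 2.78% and 5.78%. COL7A1, the anchoring fibril collagen, was at 77.3 FPKM in hypoxia and 20.1 in normoxia, and COL12A1 at 8.32 FPKM in hypoxia and 2.27 in normoxia. COL6A1 and COL6A2, chains of one microfibrillar collagen, had ratios of 1.02 and 1.08 but did not pass limma (adjusted p = 0.124 and 0.141).

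Some basement membrane and protease genes were higher as well. LAMB3, a chain of an epithelial laminin, was at 32.6 FPKM in 3D hypoxia, against 12.2 FPKM in 3D normoxia, and rose by limma. The laminin list had 11 of 13 genes above 0, where 47.8% of all compared genes were, and a median of 0.68. ITGA5, the fibronectin receptor's alpha chain, was the 1 integrin of 17 at least 2-fold higher (1.70). ITGA10, a collagen receptor chain, was the 1 integrin at least 2-fold lower, at 0.993 FPKM in 3D hypoxia and 4.87 FPKM in 3D normoxia (-1.56), and 10 of the 17 were above 0. PLAU, the urokinase, which activates plasminogen, had a ratio of 1.09. The metalloproteases MMP7 (1.22) and MMP24 (1.20) were over 2-fold, and MMP7 did not pass limma (adjusted p = 0.0832).

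Epithelial and mesenchymal structural genes were higher side by side. Of 17 keratins and desmosome genes, 4 were at least 2-fold higher and 7 rose by limma, with a median log2 ratio of 0.61. Among all compared genes the shares were 2.78% and 5.78%. DSP, which ties desmosomes to keratin, was at 65.5 FPKM in 3D hypoxia and 21.4 FPKM in 3D normoxia, and the desmosomal cadherin DSG2 at 67.1 FPKM in hypoxia and 26.8 in normoxia. VIM, an intermediate filament of mesenchymal cells, was at 985 FPKM in hypoxia and 293 in normoxia, and CDH2, N-cadherin, at 9.85 FPKM in hypoxia and 4.32 in normoxia. TGFBI, a secreted matrix protein, was at 602 FPKM in hypoxia and 173 in normoxia. VIM, CDH2 and TGFBI all rose by limma, and they were the 3 of 10 measured epithelial-mesenchymal switch genes past 2-fold, a list with 9 genes above 0 and a median of 0.36. Tight junction genes parted, with CLDN1 at 1.22 and the scaffold CGN at -1.09 beside CLDN2.

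Actin-binding genes stood higher, led by TAGLN. Of 22 contractile and actin-binding genes, 20 were above 0, 6 were at least 2-fold higher and 10 rose by limma, with a median of 0.53. Shares over all compared genes were 47.8%, 2.78% and 5.78%. TAGLN, an actin-binding protein of smooth muscle, was low on Matrigel, at 8.75 FPKM in 3D hypoxia and 2.26 FPKM in 3D normoxia, against 227 FPKM in 2D hypoxia and 13.7 FPKM in 2D normoxia. FLNA, a filamin, was at 499.6 FPKM in hypoxia and 181 in normoxia on Matrigel, TPM1, a tropomyosin, at 289 FPKM in hypoxia and 117 in normoxia, and TAGLN2 at 885 FPKM in hypoxia and 359.6 in normoxia. ACTA2, smooth muscle actin, went against the list, at 3.63 FPKM in hypoxia and 10.0 in normoxia, and fell by limma (adjusted p = 0.00130). ACTA2 overlaps FAS on the other strand, so reads of the pair cannot be told apart without strand. Targets of the YAP and TAZ coactivators had 14 of 17 above 0 and a median of 0.61. Among them AXL, a receptor tyrosine kinase, was at 42.4 FPKM in 3D hypoxia and 8.83 FPKM in 3D normoxia. TUBA1A, a tubulin with close paralogs, was at 224 FPKM in hypoxia and 56.5 in normoxia. The tubulins TUBB3 and TUBB6 had ratios of 1.27 and 1.22, and TUBB3 did not pass limma (adjusted p = 0.0664). Tubulins and microtubule-binding genes were mixed as a list, with 17 of 28 above 0 and 11 below. Their median of 0.12 turned to -0.01 on rescaling to a sum of 1000000.

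The goblet cell programme, which makes gel-forming mucus, was lower. Of 10 measured genes, 4 were at least 2-fold lower and 7 fell by limma, with a median log2 ratio of -0.88. For all compared genes the shares were 0.97% and 3.98%. MUC5AC, a gel-forming mucin, was at 22.4 FPKM in 3D hypoxia and 61.5 FPKM in 3D normoxia, and SPDEF, a transcription factor of goblet cells, at 18.2 FPKM in hypoxia and 45.0 in normoxia. FOXA3, another factor of the programme, had a ratio of -1.15, and AGR2, an endoplasmic reticulum protein that helps mucins fold, of -0.92. TFF1, a trefoil peptide, went against the list at 20.7 FPKM in hypoxia and 5.78 in normoxia, but was lower in 2D (-0.79) and did not pass limma (adjusted p = 0.577). The membrane mucins parted, since MUC1 was at 29.3 FPKM in hypoxia and 5.16 in normoxia and MUC13 at 8.69 FPKM in hypoxia and 21.3 in normoxia. MUC1 rose and MUC13 fell by limma (adjusted p = 0.0431 and 0.00170).

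Some other epithelial genes were lower, taken from lists that did not move 1 way. S100P, a calcium-binding protein, was at 44.5 FPKM in 3D hypoxia and 131 FPKM in 3D normoxia, and AQP3, a water and glycerol channel, at 72.0 FPKM in hypoxia and 179.9 in normoxia. The surface proteins TSPAN8 and CEACAM1 had ratios of -1.43 and -1.28, and all 4 of these genes fell by limma. The adhesion molecule list that holds TSPAN8 and CEACAM1 had 15 of 23 genes above 0 and a median of 0.34. Of 18 plasma protein genes 7 were above 0 and 11 below, with a median of -0.11 that turned to 0.03 at a mean of at least 5 FPKM. In this list 4 genes were at least 2-fold lower, among them APOH, a phospholipid-binding plasma protein, at 36.4 FPKM in hypoxia and 105 in normoxia. TF, transferrin, went the other way, at 21.5 FPKM in 3D hypoxia and 6.91 FPKM in 3D normoxia, and CP, a copper-bearing ferroxidase, was at 526 FPKM in hypoxia and 146 in normoxia. CP passed limma (adjusted p = 0.0459) and TF did not (adjusted p = 0.434). L1CAM (1.68) and SDC4 (1.56), also of the adhesion molecule list, were higher.

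Most of the NF-kB subunits and feedback genes were higher in 3D hypoxia. Of 21 NF-kB subunits and feedback genes, 20 were above 0, 5 were at least 2-fold higher and 6 rose by limma, with a median of 0.48. For all compared genes the shares were 47.8%, 2.78% and 5.78%. The feedback inhibitors TNIP1 and TNFAIP3 were at 169.9 and 9.07 FPKM in 3D hypoxia, against 48.7 and 2.59 FPKM in 3D normoxia, and the subunit RELB at 38.6 FPKM in hypoxia and 16.1 in normoxia. CCL2, which attracts monocytes, was at 210.2 FPKM in hypoxia and 38.2 in normoxia, CXCL8, which attracts neutrophils, at 57.0 FPKM in hypoxia and 13.3 in normoxia, and the cytokine IL32 at 49.8 FPKM in hypoxia and 4.27 in normoxia. The chemokine and interleukin list that holds them had 9 of 14 genes above 0 and 5 below, with a median of 0.32. Complement genes C1R (1.61) and C1S (1.34) rose. C3, at 139 FPKM in hypoxia and 59.5 in normoxia, did not pass limma (adjusted p = 0.272). Of 12 complement genes and regulators, 8 were above 0 and 4 below, with a median of 0.17. Antigen presentation genes were mixed, with 11 of 18 above 0 and a median of 0.16, 1 rise and 3 falls by limma, and HLA-B (1.00) and HLA-C (0.63), class I chains, above 0. HLA-DMB, which loads peptides on class II molecules, was at 53.2 FPKM in hypoxia and 144 in normoxia, its partner HLA-DMA at 12.6 FPKM in hypoxia and 30.1 in normoxia, and the thiol reductase IFI30 at 14.0 FPKM in hypoxia and 41.1 in normoxia. These were the 3 falls of the list. The antiviral enzyme OAS1 (-1.39) was the 1 fall among 18 measured interferon-stimulated genes. That list was mixed, with 8 above 0 and 10 below, a median of -0.09 and 1 rise.

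Some immediate-early and signalling genes were higher, in lists that differed in how far they moved. Of 26 MAPK feedback and immediate-early genes, 18 were above 0, 7 rose and 3 fell by limma, with a median of 0.35. Of all compared genes 47.8% were above 0, 2.78% were at least 2-fold higher, 5.78% rose and 3.98% fell by limma. JUN, a subunit of the AP-1 transcription factor, was at 22.004 FPKM in 3D hypoxia and 3.17 FPKM in 3D normoxia, and JUNB at 52.4 FPKM in hypoxia and 19.9 in normoxia. FOS, their partner, was at 21.1 FPKM in hypoxia and 7.98 in normoxia on Matrigel but at 2.13 FPKM in 2D hypoxia and 2.49 in 2D normoxia, and did not pass limma (adjusted p = 0.243). EGFR, the epidermal growth factor receptor, had a ratio of 1.38 and its feedback inhibitor ERRFI1 of 1.74, in a list of 14 genes with 9 above 0. Its median of 0.05 turned to -0.07 on rescaling to a sum of 1000000. Of 25 genes of activin, TGF-beta and BMP signalling, 4 were at least 2-fold higher and 9 rose by limma, with a median of 0.46. SMAD7, an inhibitor of the pathway, was at 10.5 FPKM in hypoxia and 2.97 in normoxia, and the activin antagonist FSTL3 at 76.9 FPKM in hypoxia and 28.7 in normoxia. DDIT4, which restrains mTOR, was at 416 FPKM in hypoxia and 144 in normoxia, the arrestin-like ARRDC3 at 40.9 FPKM in hypoxia and 8.01 in normoxia, and the clock repressor BHLHE40 at 167 FPKM in hypoxia and 65.0 in normoxia. The mTOR list had 16 of 27 genes above 0 and a median of 0.10, which turned to -0.01 on rescaling to a sum of 1000000. The circadian list had 6 of 14 above 0 and a median of -0.01.

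Most genes in a list of growth arrest, apoptosis and damage response genes were lower on Matrigel in hypoxia. Of 21 genes, 19 were below 0 and 5 at least 2-fold lower, with a median log2 ratio of -0.57 on Matrigel and -0.15 in 2D. Among all compared genes 52.2% were below 0, 0.97% were at least 2-fold lower and 3.98% fell by limma. CDKN1A, the p21 inhibitor of cyclin-dependent kinases, was at 14.0 FPKM in 3D hypoxia and 40.1 FPKM in 3D normoxia, and BAX, which permeabilises mitochondria in apoptosis, at 100.2 FPKM in hypoxia and 231 in normoxia. FDXR, a mitochondrial reductase, was at 10.0 FPKM in hypoxia and 30.5 in normoxia, and GADD45A, a damage-inducible gene, at 4.92 FPKM in hypoxia and 11.9 in normoxia. By limma 6 of the list fell and 0 rose, and CDKN1A, BAX and FDXR were among the falls (adjusted p = 0.0213, 0.0296 and 0.00155). MDM2, a ubiquitin ligase, was at 9.82 FPKM in hypoxia and 16.7 in normoxia and did not pass limma (adjusted p = 0.168). Related lists were mixed. The BCL2 family, which also holds BAX, had 9 of 16 genes above 0 and 7 below, with a median of 0.14. In it 3 genes were at least 2-fold higher and 1 lower. Cyclins and CDK inhibitors, which also hold CDKN1A, had 8 of 18 above 0 and 10 below, with a median of -0.08.

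**Figure D4:**
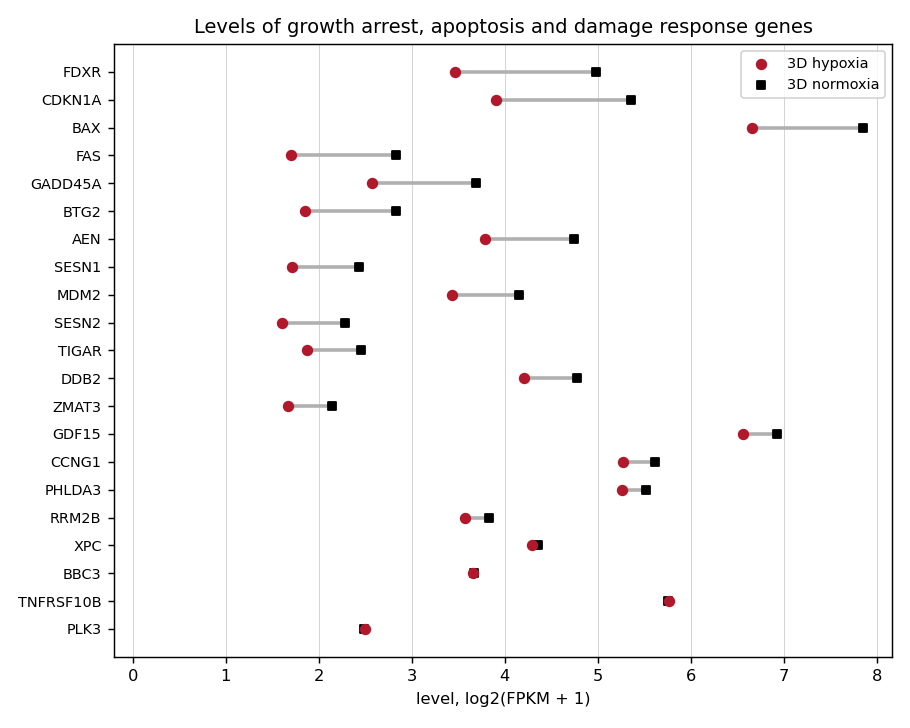
Level in 3D hypoxia (red circles) and 3D normoxia (black squares), as log2(FPKM + 1) on the horizontal axis, for 21 genes of growth arrest, apoptosis and the damage response, 1 library each, from the lowest to the highest ratio. FDXR, CDKN1A and BAX have the widest gaps, and PLK3 and TNFRSF10B, at the bottom, have ratios near 0.

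Proliferation and repair genes were lower by small amounts in nearly every member. All 39 genes of DNA replication and nucleotide supply were below 0, with a median of -0.50, and 12 fell by limma. CDC6, which licenses replication origins, was at 8.59 FPKM in 3D hypoxia and 17.8 FPKM in 3D normoxia, and PCNA, the replication clamp, at 121 FPKM in hypoxia and 234 in normoxia. All 22 genes of homologous recombination and mismatch repair were below 0 (median -0.44, 5 falls), BRCA1 among them at 4.13 FPKM in hypoxia and 8.27 in normoxia. Of 37 mitotic genes, 36 were below 0 (median -0.42, 2 falls). Over all compared genes 3.98% fell by limma, and the mitotic falls were near that share. None of these 3 lists had a gene at or past 2-fold. The 2D medians were -0.31, -0.25 and -0.16 in the same order. Cytosolic ribosomal proteins had 73 of 80 above 0, with a median of 0.18 and 1 rise, where 5.78% of all compared genes rose. Rescaling to a sum of 1000000 lowered the median of all genes by 0.12, so this small shift depends largely on library scaling. Proteasome subunits had 32 of 37 below 0, with PSMC4, an ATPase of the regulatory particle, at 105 FPKM in hypoxia and 226 in normoxia.

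Genes of the endoplasmic reticulum and of metal binding gave mixed values. Of 24 chaperone and unfolded protein response genes, 17 were below 0 and 8 fell by limma, with a median of -0.24. The shares over all compared genes were 52.2% and 3.98%. SDF2L1, a chaperone cofactor, was at 20.3 FPKM in 3D hypoxia and 53.3 FPKM in 3D normoxia, while ERO1A, which drives disulfide formation and is a HIF target, was at 66.4 FPKM in hypoxia and 20.8 in normoxia. TRIB3, an ATF4 target, was at 112 FPKM in hypoxia and 50.6 in normoxia on Matrigel and had a ratio of -0.17 in 2D. The metallothionein MT1X was at 228 FPKM in hypoxia and 43.9 in normoxia and has close paralogs. It was the 1 gene at least 2-fold higher of 23 metallothioneins and zinc transporters, of which 14 were below 0 (median -0.09). The calcium-binding S100A3 was at 69.0 FPKM in hypoxia and 17.2 in normoxia. Of 10 S100 genes it was the 1 at least 2-fold higher, 1 was at least 2-fold lower, and the median was 0.11. LPCAT1, which remodels surfactant lipids, was at 61.2 FPKM in hypoxia and 25.01 in normoxia.

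Set beside the dish, the response on Matrigel was shared in direction for most genes. On the dish, 226 genes (1.8%) stood 2-fold or more above normoxia and 175 (1.39%) 2-fold or more below it, and 49.7% of all compared genes had a 2D ratio above 0 and 50.3% below 0. Of the 349 genes higher on Matrigel, 133 (38.1%) were also at least 2-fold higher in 2D, 193 were higher by less, 21 were lower by less than 2-fold and 2 were at least 2-fold lower. The 133 shared genes made up 58.8% of those higher in 2D. Of the 122 lower genes, 62 (50.8%) were also at least 2-fold lower in 2D, which was 35.4% of those lower in 2D, 50 were lower by less, and 10 were higher. The higher genes had a median ratio of 1.37 on Matrigel and 0.79 in 2D, and the lower genes -1.26 on Matrigel and -1.03 in 2D. The choice of genes by their ratio on Matrigel by itself favours the larger value there. No library is common to both pairs, and the difference of the responses was not tested, so nothing here is called particular to Matrigel.

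Single genes illustrate both arrangements. EGLN3 had ratios of 3.58 on Matrigel and 3.50 in 2D, and IGFBP3 of 2.39 on Matrigel and 2.41 in 2D. IGFBP1 had ratios of 4.31 on Matrigel and 1.54 in 2D, with 604 FPKM in 3D hypoxia and 50.1 FPKM in 2D hypoxia. For PDGFB the ratio was 1.37 on Matrigel and 3.02 in 2D, and for S100P -1.54 on Matrigel and -3.19 in 2D.

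**Figure D5:**
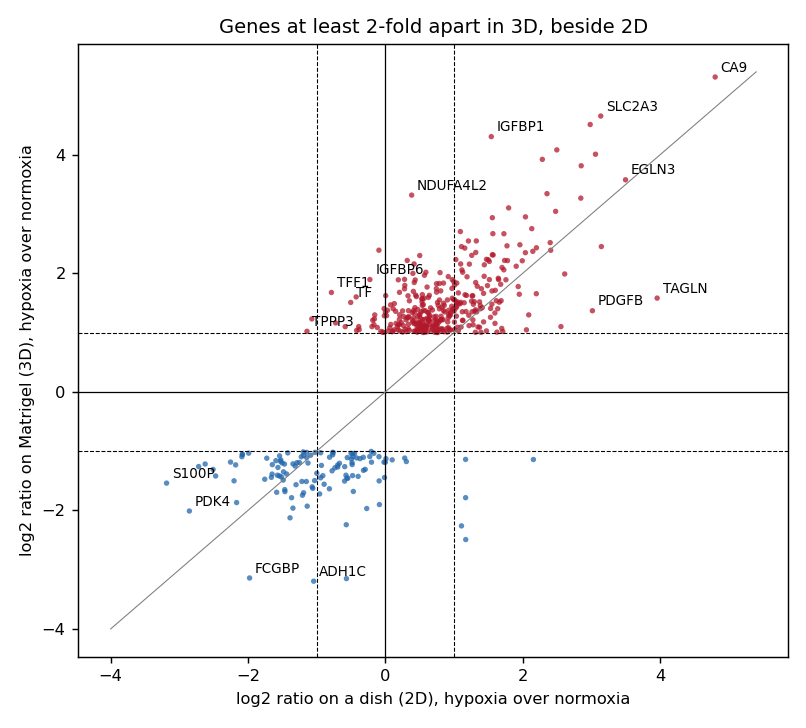
Log2 ratio of hypoxia over normoxia on Matrigel (vertical axis) against the same in 2D (horizontal axis) for the 349 higher genes (red) and the 122 lower genes (blue) of the Matrigel pair, with dashed lines at 2-fold and the line of equality. Most points share their sign, and 133 of the higher and 62 of the lower genes are past 2-fold on both axes.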

How the data were processed

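For each library the authors deposited FPKM values by gene symbol, and no counts were used. Total RNA came from a miRNeasy Micro Kit and the libraries from the TruSeq Stranded mRNA chemistry, per the labels' protocols. TopHat2 2.1.1, Bowtie2 2.2.8, SAMtools 0.1.18, Cuffdiff 2.2.1 and the hg19 build are named, per the submitters' processing notes. The sources used here do not give their settings, the gene annotation, strand use or depth.

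Ratios were taken as log2((FPKM + 1)/(FPKM + 1)) for genes averaging 1 FPKM or more over 4 libraries. Small RNA genes were left out (MIR, SNOR, SCARNA, RNU, RN7 and a few like them, MIR host genes kept). With 1 library per group, no test of the pair was possible, and at least 2-fold stands for a call. Depth was inferred from the commonest lowest value of FPKM times length (2134 genes with a single transcript of over 1000 bases, lengths from GENCODE 29, an annotation of another build). The counting errors from it are estimates.

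The average hypoxia effect was fitted with limma 3.58.1 in R 4.3.3 (trend, oxygen and culture as additive terms, 1 residual degree of freedom, Benjamini-Hochberg adjustment at 0.05 over all 12573 genes). The fit was tested on simulated data, where it made more false calls than its threshold allows. Ratios, depth and figures used pandas 2.3.3, numpy 2.4.6, matplotlib 3.10.9 and Python 3.11.15.

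Members and the 77 gene lists were chosen with earlier results of these data known. Named genes reached 5 FPKM in either library and had no uncharacterised symbol. They were the 15 highest and 15 lowest ratios, the 5 largest gains and losses of FPKM, from each list the top 4 or fewer by size of ratio among those past 2-fold (the largest where none was) and HIF1A, EPAS1 and ARNT. Genes named beyond this rule were chosen after their values were seen. So was FCGBP among the promoters, in place of H3F3A. Some genes that meet the rule are not reported here. Promoters are RefSeq sequences. Alternatives were pseudocounts of 0.1 and 5, the low-value filter, 2 rescalings and small RNA genes kept.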

Additional observations from a re-analysis of the deposited data

Results flagged for a closer look

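In 7 genes the ratio on Matrigel and the ratio in 2D were each at least 2-fold and of opposite sign. They were chosen for that after their values were seen, and the difference between the cultures was not tested. TPPP3, a tubulin-binding protein, was at 46.9 FPKM in 3D hypoxia and 22.6 FPKM in 3D normoxia, against 2.18 FPKM in 2D hypoxia and 6.003 FPKM in 2D normoxia, a difference of 2.16 between the log2 ratios. The histone gene HIST1H4E, whose transcripts mostly lack a poly(A) tail, differed by 2.30. The other 5 were lower on Matrigel and higher in 2D and overlap other transcripts, so their values are uncertain. The readthroughs BLOC1S5-TXNDC5 and TRIM6-TRIM34 differed by -3.30 and -2.95, the antisense genes CELSR3-AS1 and CDC37L1-AS1 by -3.37 and -2.31, and NARR by -3.66. Of these 5, BLOC1S5-TXNDC5, CELSR3-AS1 and NARR were listed at 0 in 3D hypoxia.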

How the results depend on the processing

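With 1 library per group, leaving out a replicate was not possible. No paired analysis was possible because each group holds 1 library, so no replicate number is shared beyond the first. The 349 higher and 122 lower genes were 194 and 38 at a pseudocount of 5, the lower ones 208 at a pseudocount of 0.1, 63 at a mean of at least 5 FPKM and 216 after rescaling to a sum of 1000000. Genes past 2-fold in both cultures were 68 higher and 23 lower at a pseudocount of 5, and 96 lower after rescaling to a sum of 1000000. The limma calls, 727 up and 500 down, were 402 and 210 at a pseudocount of 5, 405 and 208 with small RNA genes kept (chosen after seeing the data) and 0 and 0 without the low-value filter, where 2887 genes had an unadjusted p under 0.05. The falls were 1208 after rescaling to a sum of 1000000 and 314 after rescaling to equal medians. No named gene changed the sign of a 2-fold ratio. Beyond the counting error, 73 of the 179 named genes moved at a pseudocount of 5, 49 on rescaling to the sum, 15 at a pseudocount of 0.1 and 1 on rescaling to medians. The cause of these shifts was not tested. A larger pseudocount shrinks the ratios of genes of low level by construction. What depth limits was assessed by the counting error alone.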

Other observations

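The genes given first were chosen after their values were seen, so they stand as values with no count or test of a group. The first are genes of caveolae, the flask-shaped pits of the cell membrane. CAV1, the main caveolin, was at 108 FPKM in 3D hypoxia and 27.9 FPKM in 3D normoxia (log2 ratio 1.92, limma adjusted p = 0.000565), and its partner CAV2 at 42.1 FPKM in 3D hypoxia and 15.8 in 3D normoxia. The coat protein PTRF was at 134 FPKM in 3D hypoxia and 51.5 in 3D normoxia, PRKCDBP had a ratio of 1.55 and EHD2, an ATPase at the caveolar neck, of 1.14. SDPR was at 0.79 and did not pass limma (adjusted p = 0.0579). The relatives EHD1 (0.28), EHD3 (-0.30) and EHD4 (0.19) differed little.

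APOL1, an apolipoprotein L, was at 23.9 FPKM in 3D hypoxia and 3.46 FPKM in 3D normoxia, and its neighbour APOL2 at 63.0 FPKM in 3D hypoxia and 8.49 in 3D normoxia, while APOL6 had a ratio of 0.16. GAL3ST1, which makes sulfated galactolipids, was at 116 FPKM in 3D hypoxia and 20.4 in 3D normoxia, and HAVCR1, a surface receptor known from injured kidney epithelium, at 125 FPKM in 3D hypoxia and 35.0 in 3D normoxia. Some genes were higher on Matrigel with little difference in 2D. AGTR1, an angiotensin receptor, had ratios of 2.22 on Matrigel and 0.32 in 2D, INHA, the inhibin alpha chain, of 2.39 on Matrigel and -0.09 in 2D, and ASS1, which makes argininosuccinate, of 1.41 on Matrigel and -0.02 in 2D. These differences between cultures were not tested. Among lower genes, the epoxide hydrolase EPHX1 was at 215 FPKM in 3D hypoxia and 587 in 3D normoxia, CPS1, a urea cycle enzyme, at 8.77 FPKM in 3D hypoxia and 21.9 in 3D normoxia, and the nuclear receptor NR4A1 at 13.5 FPKM in 3D hypoxia and 31.9 in 3D normoxia.

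Neighbouring genes were compared without a test. In the RefSeq gene order (GRCh38.p14), 62 of the 626 non-overlapping neighbours of higher genes (9.90%) were themselves at least 2-fold higher, where 2.78% of all compared genes were. For lower genes it was 8 of 199 (4.02%), where 0.97% were lower. A pair that moved the same way enters these counts from both of its members, so the neighbours are not independent. Of 10926 non-overlapping neighbour pairs, 31 were both higher, 4 both lower and 6 opposite. Pairs that were both higher included IGFBP1 with IGFBP3, CAV1 with CAV2, APOL1 with APOL2, C1R with C1S, EFNA1 with EFNA3 and COL6A1 with COL6A2. Pairs that were both lower included HLA-DMA with HLA-DMB and ADH6 with ADH1C. Several of these pairs are paralogs that can share reads, and the part of shared reads in these counts was not tested.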
